A study of Mus musculus with 6 samples.

Results

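Integrin subunit transcripts were examined in murine 10T1/2 cells, an established mesenchymal fibroblast line, by RNA sequencing of 6 libraries. Rows of the read count table were taken by gene symbol for 10 subunits that bind collagen, fibronectin, laminin or latent TGF-β, and all 10 of 10 were found among the 57180 rows of the table. The tested cells received photodynamic therapy (PDT) with chlorin e6, a light-activated dye, loaded into midkine-targeted extracellular vesicles (Ce6@D4-EV) and then irradiated with light (3 libraries), and the control cells received PBS (3 libraries). Cells of both groups had been activated with TGF-β at 5 ng/mL as a model of cancer-associated fibroblasts, and no unstimulated cells were compared. Vesicles, dye and light were given together, the cells are 1 line, and when RNA was taken after treatment is unknown here. The series text calls the samples biological replicates without further detail, so p-values reflect only how far these samples vary.

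Integrins are cell surface receptors made of an alpha and a beta subunit, and the pair decides which matrix protein is bound. The β1 subunit pairs with many alpha subunits, among them α1 and α11 (collagen), α5 (fibronectin), α8 (nephronectin and other proteins with the tripeptide RGD) and α3 and α6 (laminin). The αv subunit pairs with β1, β3, β5, β6 or β8 and binds RGD proteins such as vitronectin and fibronectin and the latency peptide of TGF-β, which couples integrins to the release of active TGF-β in fibroblasts.

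The libraries held 83195529 to 99527847 counts, and mitochondrially encoded genes took 2.24% to 2.57% of them. Levels are given as CPM, the counts scaled to a common library size after TMM normalisation, and log2 fold changes are PDT over PBS ± SE from edgeR's quasi-likelihood test, with p-values adjusted by Benjamini-Hochberg over 17635 tested genes. The fibroblast genes Col1a1, Col1a2, Vim, Pdgfra and Pdgfrb were well detected, but the fibroblast markers Thy1, Dcn and Lum had means of at most 1.31 CPM in either group. Thy1 averaged 0.306 ± 0.192 CPM in PDT cells and 0.297 ± 0.179 CPM in PBS cells (SD, n = 3 each). Dcn, the decorin gene, averaged 1.31 ± 0.372 CPM in PDT cells and 0.603 ± 0.250 CPM in PBS cells and was called higher (log2 fold change 1.12 ± 0.32, adjusted p = 0.0225, edgeR), a call that ended without PBS replicate 1 (0.0708) or 3 (0.0654), without PDT replicate 2 (0.0941) and without a count filter (0.0636). The summed level of 9 fibroblast markers, dominated by Col1a1, Col1a2 and Vim, was 11967 to 12447 CPM in PDT libraries and 20351 to 21211 CPM in PBS libraries. The collagen genes Col1a1, Col1a2 and Col3a1 had log2 fold changes of -1.31, -0.92 and -1.04. Those of Vim, Pdgfra and Pdgfrb were smaller, at -0.27, -0.31 and -0.25, and Thy1 and Lum were not called. In such bulk samples, fewer cells of a type and less RNA per cell cannot be told apart.

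Promoter sequences are shown for the αv and β5 subunits, which can form a heterodimer and were both lower in PDT cells, for α11, which had the largest fold change, and for β1, the common partner. Each run is the 250 bases before the annotated start in RefSeq on GRCm38.p6, an earlier build than that of the counts, written 5′ to 3′ on the gene's strand. Capitals mark matches on either strand to CAGAC (SMAD-type), TGANTCA (AP-1), GGAATG (TEAD), TGACNNNGC (antioxidant response) or GGGCGG (GC box).
Itgav, chr2:83724147-83724396, plus strand: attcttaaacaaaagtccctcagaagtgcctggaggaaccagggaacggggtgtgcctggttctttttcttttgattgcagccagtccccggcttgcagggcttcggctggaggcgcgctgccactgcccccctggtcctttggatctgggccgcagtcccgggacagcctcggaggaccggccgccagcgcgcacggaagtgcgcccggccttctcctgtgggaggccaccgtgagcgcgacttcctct
Itgb5, chr16:33829415-33829664, plus strand: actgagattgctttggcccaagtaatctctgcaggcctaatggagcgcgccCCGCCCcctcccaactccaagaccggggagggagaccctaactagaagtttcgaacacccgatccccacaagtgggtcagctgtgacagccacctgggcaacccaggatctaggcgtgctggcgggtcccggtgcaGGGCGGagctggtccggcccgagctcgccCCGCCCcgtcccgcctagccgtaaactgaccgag
Itga11, chr9:62677605-62677854, plus strand: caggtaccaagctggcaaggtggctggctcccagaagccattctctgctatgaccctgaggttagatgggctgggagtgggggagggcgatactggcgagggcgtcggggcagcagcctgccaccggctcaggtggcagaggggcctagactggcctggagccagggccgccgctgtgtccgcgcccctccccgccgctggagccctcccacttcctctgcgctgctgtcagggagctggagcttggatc
Itgb1, chr8:128685404-128685653, plus strand: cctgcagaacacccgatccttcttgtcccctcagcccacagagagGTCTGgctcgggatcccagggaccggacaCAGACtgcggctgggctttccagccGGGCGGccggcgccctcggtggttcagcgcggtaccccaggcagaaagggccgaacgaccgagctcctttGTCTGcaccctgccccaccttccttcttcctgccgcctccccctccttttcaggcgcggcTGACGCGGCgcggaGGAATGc
The Itgb5 run held GC boxes with their first base 199, 63 and 34 bases before the start and none of the other motifs. The Itgav and Itga11 runs held no match. The Itgb1 run held 3 SMAD-type matches, 1 GC box, 1 TEAD match and 1 antioxidant response match, none of which overlapped another. Of 32851 promoter windows of this length, 42.2% held CAGAC, 6.75% TGANTCA, 12.6% GGAATG, 10.2% TGACNNNGC and 32.7% GGGCGG. The AP-1 and antioxidant response motifs can overlap, which happened in no run shown. A match of letters is a description and does not show that a factor was bound.

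Most of the subunit transcripts were lower after PDT, and 1 was higher. All 10 passed the filter on low counts, 8 fell, Itga6 rose, and Itga3 did not pass the test. For comparison, 36.1% of all tested genes were called, 18.7% higher and 17.5% lower. All tested genes include many with low counts, and the subunits were chosen with earlier results of these data known. With a stricter filter on low counts, 6155 of 12831 genes were called, and the subunits counted 7 lower and 1 higher. The median log2 fold change was -0.70 over the 10 subunits and 0.01 over all tested genes. CPM values of the groups did not overlap for 9 of the 10, against 49.0% of all tested genes. With scaling by library size only, 63.0% of calls over all genes were higher in place of 51.7%, and the subunits still counted 8 lower and 1 higher.

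**Figure D1:**
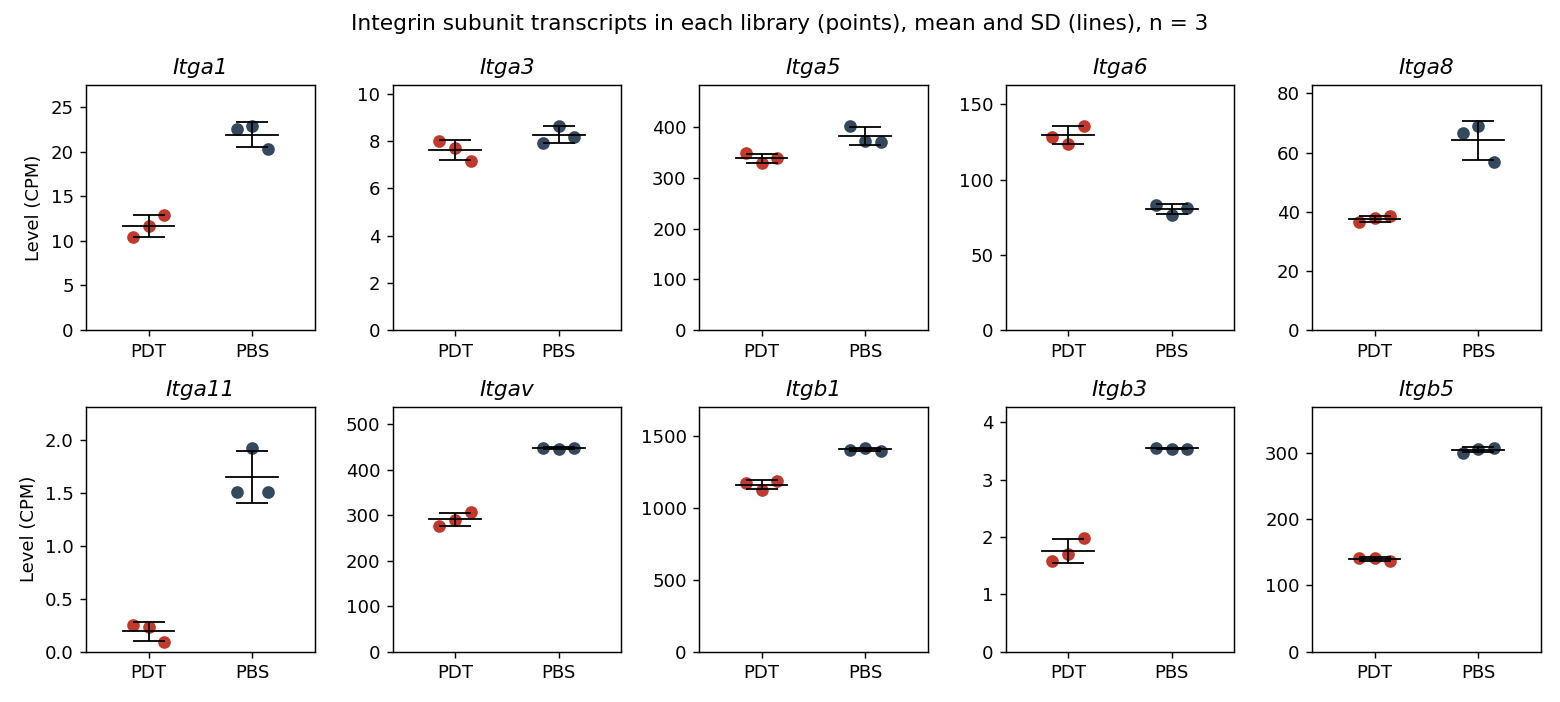
Level of each integrin subunit transcript in CPM (vertical axes, from 0) in 3 PDT and 3 PBS libraries. Points are libraries and lines are the mean and SD. The groups overlap for Itga3 alone among the 10, and Itga6 is the subunit whose PDT libraries, at 124 to 136 CPM, lie above those of PBS.

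Among the 10 subunits, the collagen-binding ones were the least abundant of the alpha subunits that changed. Itga1, the α1 subunit, had 10.4, 11.7 and 12.9 CPM in PDT cells, against 22.6, 22.9 and 20.3 CPM in PBS cells. Every PDT library lay below every PBS library, with a log2 fold change of -0.91 ± 0.09 (adjusted p = 4.88e-05, edgeR). Itga11, the α11 subunit of mesenchymal cells that binds fibrillar collagen, had 0.256, 0.229 and 0.0894 CPM in PDT cells, against 1.51, 1.93 and 1.51 CPM in PBS cells. These levels rest on 23, 23 and 9 counts in PDT libraries and 129, 158 and 123 counts in PBS libraries. The third PDT library was the lowest, and without it the direction and the call stayed. Itga11 fell by 3.11 ± 0.34 on the log2 scale (8.62-fold, 95% confidence interval -3.86 to -2.36, adjusted p = 9.98e-05, edgeR). This placed it 32nd of 17635 genes by the size of the log2 fold change. The ratio of Itga11 to Itga1, both divided by transcript length, was 0.0376 ± 0.0201 in PDT cells and 0.166 ± 0.0193 in PBS cells (SD, n = 3 each).

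The RGD-binding alpha subunits were lower to different degrees. Itga5, the α5 subunit of the main fibronectin receptor, had 349, 330.3 and 339 CPM in PDT cells, against 403, 373 and 372 CPM in PBS cells. The groups did not overlap, but the change was small (log2 fold change -0.17 ± 0.04, adjusted p = 0.0107, edgeR). Over the 14 alternatives its adjusted p ran from 0.000608 to 0.048, the highest without PBS replicate 1, the library with the highest level. Itgav, the αv subunit, had 277, 289 and 306 CPM in PDT cells, against 449, 445 and 449 CPM in PBS cells. It fell by 0.62 ± 0.04 on the log2 scale (1.54-fold, adjusted p = 4.56e-06, edgeR), and its PBS libraries differed from each other by far less than from any PDT library. Itga8, the α8 subunit known from mesenchymal and smooth muscle cells, had 36.4, 37.7 and 38.4 CPM in PDT cells, against 66.6, 69.1 and 56.7 CPM in PBS cells. It fell by 0.77 ± 0.07 on the log2 scale (adjusted p = 3.18e-05, edgeR). The third PBS library was the lowest of its group and still lay well above every PDT library.

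Of the laminin-binding subunits, α6 was higher after PDT and α3 was not called. Itga6, the α6 subunit, had 129, 124 and 136 CPM in PDT cells, against 83.2, 76.7 and 81.5 CPM in PBS cells. It rose 1.61-fold (log2 fold change 0.69 ± 0.05, adjusted p = 5.85e-06, edgeR), and no PDT library lay near the PBS range. Itga3, the α3 subunit, had 8.01, 7.73 and 7.15 CPM in PDT cells, against 7.95, 8.66 and 8.20 CPM in PBS cells. The groups overlapped, and the log2 fold change of -0.12 ± 0.08 had a 95% confidence interval of -0.31 to 0.07 (adjusted p = 0.319, edgeR), so a difference was not detectable at this spread. The ratio of Itga6 to Itga3 per transcript length was 19.2 ± 1.93 in PDT cells and 11.0 ± 0.921 in PBS cells (SD, n = 3 each), and the libraries of the groups did not overlap.

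Among the beta subunits, the transcripts of the αv partners β5 and β3 had larger decreases than that of β1. Itgb1 had 1174, 1124 and 1184 CPM in PDT cells, against 1402, 1418 and 1396 CPM in PBS cells. It was the most abundant of the 10 transcripts and ranked 57th of all tested genes by level before scaling for length. Itgb1 fell by 0.28 ± 0.03 on the log2 scale (adjusted p = 0.000251, edgeR). Itgb5 had 141, 142 and 137 CPM in PDT cells, against 301, 306 and 308 CPM in PBS cells. It fell 2.18-fold (log2 fold change -1.12 ± 0.03, adjusted p = 3.51e-08, edgeR), with libraries of each group lying close together. Itgb3, which with αv forms the vitronectin receptor, had 1.58, 1.71 and 1.98 CPM in PDT cells, against 3.56, 3.53 and 3.54 CPM in PBS cells. It fell 2.02-fold (log2 fold change -1.01 ± 0.13, adjusted p = 0.000352, edgeR), from counts of 142 to 199 in PDT libraries and 289 to 304 in PBS libraries. The ratio of Itgb5 to Itgb1 per transcript length was 0.140 ± 0.00608 in PDT cells and 0.252 ± 0.00401 in PBS cells (SD, n = 3 each). That of Itgb5 to Itgb3 was 142 ± 18.0 in PDT cells and 152 ± 2.45 in PBS cells, with overlapping libraries. Of 8 such ratios between subunits, 7 did not overlap between the groups and reached p = 0.1 in an exact two-sided permutation test (0.114 after Benjamini-Hochberg adjustment over the 8), the smallest p that 3 against 3 libraries allow. The ratio of Itgb5 to Itgb3 gave p = 0.6 in the same exact test.

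**Figure D2:**
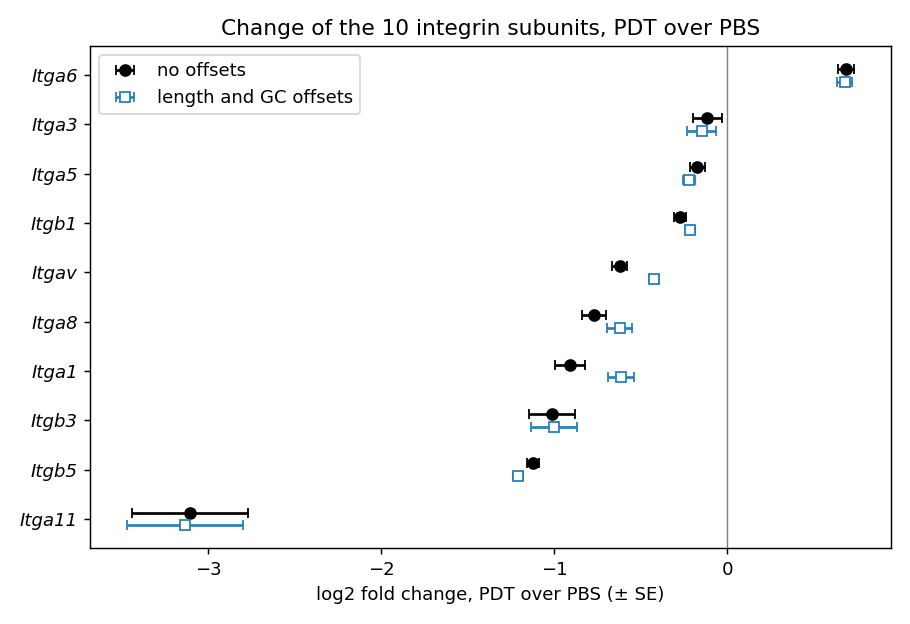
Log2 fold change of each subunit, PDT over PBS, with SE (horizontal axis), without and with offsets for transcript length and GC content. The order runs from Itga6 at 0.69 to Itga11 at -3.11. With offsets Itga1, Itgav, Itga8 and Itgb1 lie nearer to 0, and Itga3, Itga5, Itga11 and Itgb5 lie further from it.

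The subunits differ in transcript length and GC content, with which fold changes may vary. The annotated transcripts used for Itga1 and Itgav are 10967 and 7054 nt long with 42.8% and 43.5% GC. With offsets for length and GC in each library, the log2 fold change was -0.62 ± 0.07 for Itga1 and -0.42 ± 0.03 for Itgav (adjusted p = 0.000155 and 3.07e-06, edgeR). For Itga8, with 5812 nt and 44.0% GC, it was -0.62 ± 0.07, and for Itgb1, with 3815 nt and 44.8% GC, it was -0.22 ± 0.03. For Itgb5, with 3282 nt and 57.0% GC, it was -1.21 ± 0.03, and for Itga6, with 4310 nt and 48.9% GC, it was 0.68 ± 0.04. The calls of all 10 subunits were the same with these offsets as without them.

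To compare levels between genes, CPM were divided by transcript length in kb. Itgb1 stood at 304 ± 8.47 CPM per kb in PDT cells and 368 ± 2.97 in PBS cells (SD, n = 3 each). Itga5 stood at 77.4 ± 2.10 CPM per kb in PDT cells and 87.3 ± 4.09 in PBS cells. Itgb5 stood at 42.6 ± 0.788 CPM per kb in PDT cells and 92.9 ± 1.17 in PBS cells. It lay below Itga5 in PDT cells and overlapped with it in PBS cells. It stood close to Itgav in PDT cells, at 41.2 ± 2.06 CPM per kb with overlapping libraries, and above Itgav in PBS cells, at 63.4 ± 0.332. Itga6 and Itga8 came next, and Itga1, Itga3, Itgb3 and Itga11 were all at or under 2.09 CPM per kb in every library. Itga1 lay below Itga3 in PDT cells (1.06 ± 0.113 and 1.57 ± 0.0903 CPM per kb) and above it in PBS cells (2.00 ± 0.130 and 1.70 ± 0.0740). These orders depend on the length used. Per kb of coding sequence, Itgav lay above Itgb5 in both groups (92.8 ± 4.65 and 58.4 ± 1.08 in PDT cells, 142.8 ± 0.748 and 127 ± 1.61 in PBS cells), Itga1 lay above Itga3 in both groups, and Itgav lay above Itga5 in PBS cells, where Itga5 stood at 121 ± 5.68.

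The make-up of the subunit pool was described as the share of each transcript in the summed CPM per kb of its class. Among the 7 alpha subunits, Itga6 took 19.0% ± 0.447 in PDT cells and 10.1% ± 0.335 in PBS cells (SD, n = 3 each), and Itgav took 26.1% ± 1.04 in PDT cells and 34.4% ± 0.897 in PBS cells. Itga5 held 49.1% ± 1.31 in PDT cells and 47.3% ± 0.885 in PBS cells, and the libraries of the groups overlapped. This overlap depends on the length used. Per kb of coding sequence, the share of Itga5 was higher in every PDT library than in any PBS library. The difference was then 3.62 percentage points, against 1.76 with transcript length. Among the 3 beta subunits, Itgb1 took 87.6% ± 0.463 in PDT cells and 79.8% ± 0.255 in PBS cells, and Itgb5 took 12.3% ± 0.467 in PDT cells and 20.1% ± 0.255 in PBS cells. Of the 10 shares, 8 did not overlap between the groups and had p = 0.1 in an exact two-sided permutation test, the smallest p possible here (0.125 after adjustment over the 10). The shares of Itga5 and Itga3 gave exact p = 0.2 and p = 0.3 with transcript length, and shares with coding length were not tested. Shares within a class add up to a fixed total, so they are not independent of each other. Sums by ligand were taken over the 10 subunits only, without other integrin subunits. The laminin-binding ones stood at 31.6 ± 1.33 CPM per kb in PDT cells and 20.4 ± 0.701 in PBS cells. The RGD-binding ones stood at 125 ± 2.27 in PDT cells and 162 ± 4.72 in PBS cells. The collagen-binding subunits Itga1 and Itga11 summed to 1.10 ± 0.0969 CPM per kb in PDT cells and 2.33 ± 0.164 in PBS cells. Itga10, which also binds collagen and is not among the 10, averaged 0.214 CPM per kb in PDT cells and 0.357 in PBS cells. All 7 alpha subunits together stood at 158 ± 3.64 CPM per kb in PDT cells and 184 ± 5.18 in PBS cells, and the 3 beta subunits at 347 ± 7.94 in PDT cells and 462 ± 3.05 in PBS cells.

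**Figure D3:**
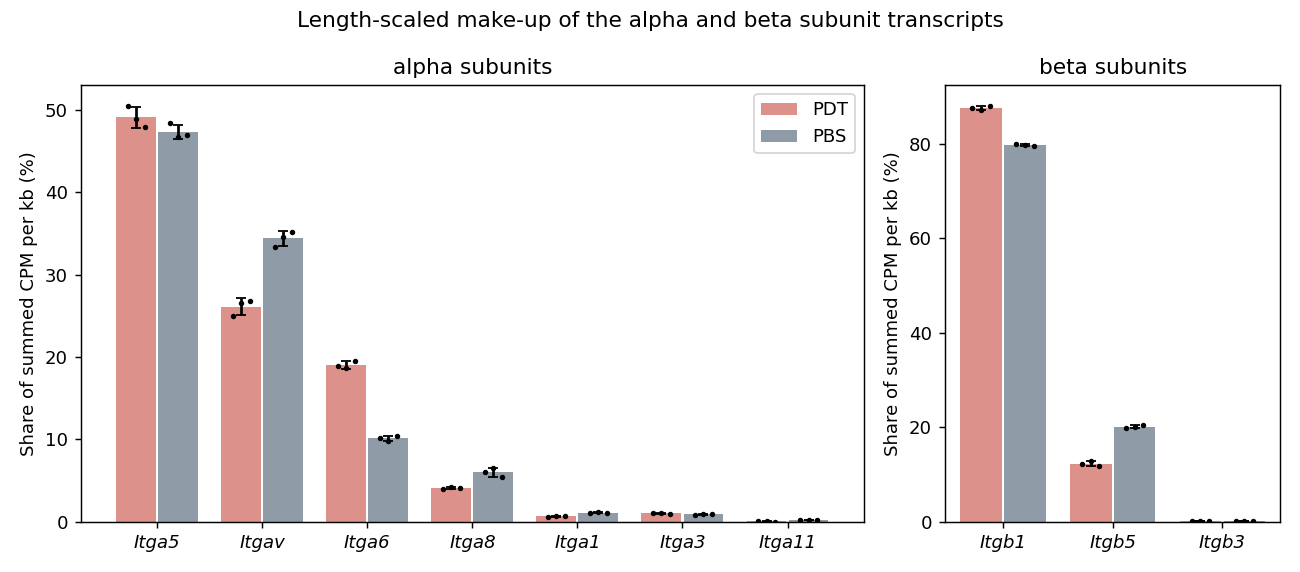
Share of each subunit (%, bars with SD, points for the 3 libraries) in the summed CPM per kb of the alpha or beta subunits. The shares of Itga6 (19.0% in PDT against 10.1% in PBS) and Itgb1 (87.6% against 79.8%) are larger in PDT libraries. Those of Itgav and Itgb5 are smaller. The level of Itgb1 itself is lower in PDT libraries (304 against 368 CPM per kb).

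Other integrin subunits were low, with means of at most 2.85 CPM per kb in either group among those tested. Of 16 listed, 11 passed the filter, 4 of them fell, 2 rose and 5 were not called, with a median log2 fold change of -0.37. This made 54.5% called, against 36.1% of all tested genes. Itgb6, the αv partner known from epithelial cells as an activator of latent TGF-β, had 0.869, 0.845 and 0.954 CPM in PDT cells, against 2.47, 2.16 and 2.70 CPM in PBS cells. It fell by 1.46 ± 0.16 on the log2 scale (adjusted p = 0.000122, edgeR). Itgb8, another αv partner that takes part in TGF-β activation, averaged 14.8 ± 2.21 CPM in PDT cells and 12.7 ± 1.01 CPM in PBS cells (SD, n = 3 each), with overlapping groups (log2 fold change 0.21 ± 0.11, adjusted p = 0.156, edgeR). With length and GC offsets its value was 0.54 (adjusted p = 0.000846, edgeR), and its transcript of 8403 nt is long.

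The beta subunits known from leukocytes were the ones that rose. Itgb2 had 1.82, 2.45 and 2.60 CPM in PDT cells, against 0.563, 0.587 and 0.809 CPM in PBS cells (log2 fold change 1.81 ± 0.22, adjusted p = 0.000193, edgeR). Itgb7 had 8.53, 7.16 and 7.22 CPM in PDT cells, against 2.73, 2.40 and 3.13 CPM in PBS cells (log2 fold change 1.47 ± 0.13, adjusted p = 2.63e-05, edgeR). In neither gene did the groups overlap. The leukocyte markers Ptprc, Adgre1 and Cd3e had 0 counts in all 6 libraries, and 3 counts, the limit that a count of 0 allows for counting error, are 0.0301 to 0.0361 CPM in these libraries. Cd68, a leukocyte marker at a low level, was also higher. It averaged 1.44 ± 0.0595 CPM in PDT cells and 0.860 ± 0.0376 CPM in PBS cells (log2 fold change 0.74 ± 0.17, adjusted p = 0.00695, edgeR). Lyz2 averaged 0.270 ± 0.0410 CPM in PDT cells and 0.153 ± 0.0107 CPM in PBS cells, with no overlap, and was not called (0.82 ± 0.38, adjusted p = 0.121, edgeR). The summed level of the 8 leukocyte markers was 3.55 to 4.38 CPM in PDT libraries and 1.58 to 1.81 CPM in PBS libraries, and without Itgb2 it was 1.70 to 1.78 CPM in PDT libraries and 0.990 to 1.04 CPM in PBS libraries. Their part in the results for Itgb2 and Itgb7 was not tested. The alpha subunits that pair with β2 or β7 in leukocytes were at most 8 counts in any library for Itga4, Itgad, Itgal, Itgam and Itgax, which failed the filter. Itgae averaged 0.315 ± 0.0546 CPM in PDT cells and 0.575 ± 0.0318 CPM in PBS cells (adjusted p = 0.0331, edgeR), a call that ended in 8 of 13 alternatives, among them the replicate block (adjusted p = 0.0654) and leaving out any of the 6 libraries. Itga10, a collagen-binding subunit of cartilage, fell by 0.74 ± 0.20 on the log2 scale (adjusted p = 0.0161, edgeR), a call that ended without PBS library 2 (0.0648) or without PDT library 1 or 2 (0.0554 and 0.0534). Itga9 was at -1.55 ± 0.51 (adjusted p = 0.0394, edgeR) from at most 36 counts a library, and its call ended in 6 of 13 alternatives, among them DESeq2 (0.0679) and leaving out PBS library 2 or 3 (0.155 and 0.0946) or PDT library 1 or 3 (0.119 and 0.101). Itga2, Itga2b, Itga7 and Itgb4 were not called, with log2 fold changes of -0.60, 0.12, -0.19 and -0.37. That of Itga2 rests on 0 to 27 counts a library and was -1.51 without PDT replicate 1, -0.29 without PBS replicate 2 and -0.0058 without PDT replicate 3.

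The ligands of these receptors fell more often than they rose. Of 32 listed, 30 passed the filter, 18 fell, 5 rose and 7 were not called (median log2 fold change -0.42). This made 76.7% called, against 36.1% of all tested genes. All tested genes include many with low counts, and with the stricter filter 6155 of 12831 genes were called. The same limit applies to the related lists that follow. These lists, like the subunits, were chosen with earlier results of these data known. The lowest adjusted p belonged to Thbs1, Fbln5, Ccn2 and Col1a1, an RGD protein, an elastic fibre protein, a matricellular protein and a fibrillar collagen chain, with log2 fold changes of -2.21, -2.21, -2.80 and -1.31 (adjusted p at or under 1.16e-08, edgeR). The ligand gene with the largest increase was Thbs2, the paralogue of Thbs1 (log2 fold change 1.0 ± 0.04, 309 ± 7.96 CPM in PDT cells and 154 ± 0.947 CPM in PBS cells, adjusted p = 7.82e-08, edgeR), chosen after its value was seen. Ligands of single subunits, chosen after their values were seen, were also compared. Npnt, which encodes the α8 ligand nephronectin, averaged 29.3 ± 0.973 CPM in PDT cells and 50.4 ± 1.75 CPM in PBS cells (SD, n = 3 each). It fell by 0.78 ± 0.05 on the log2 scale (adjusted p = 2.74e-06, edgeR), beside -0.77 ± 0.07 for Itga8. For the laminin receptors, the laminin chain genes Lama5 and Lamb2 fell by 0.48 ± 0.04 and 0.41 ± 0.05, while Lama4 and Lamb1 were not called, at 0.06 ± 0.04 and -0.04 ± 0.04. Spp1, the RGD protein osteopontin, rose by 0.31 ± 0.04 to 1189 ± 37.7 CPM in PDT cells, against 957 ± 48.2 CPM in PBS cells (adjusted p = 0.000543, edgeR).

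Genes listed for the latent TGF-β complex, the αv ligand, had 4 of 8 tested members lower, 1 higher and 3 not called. The median was -0.21, and 62.5% were called, against 36.1% of all tested genes. Ltbp2, Ltbp3 and Ltbp1, genes named for latent TGF-β binding, fell by 0.49 ± 0.04, 0.35 ± 0.04 and 0.24 ± 0.04 on the log2 scale (adjusted p at or under 0.00155, edgeR). The name does not show that each product, above all that of Ltbp2, is part of the complex. The ligand gene Tgfb2 fell by 0.51 ± 0.10 to 12.1 ± 1.84 CPM in PDT cells, against 17.3 ± 0.234 CPM in PBS cells (adjusted p = 0.00291, edgeR). The ligand genes whose latency peptides hold the RGD sequence, chosen after their values were seen, are Tgfb1 and Tgfb3. Tgfb1 rose by 0.33 ± 0.07 to 12.5 ± 0.436 CPM in PDT cells, against 9.99 ± 0.351 CPM in PBS cells (adjusted p = 0.00496, edgeR), and was the list member that was higher. Tgfb3 was not called, at -0.03 ± 0.04.

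Genes for proteins that act on the cytoplasmic side of integrins moved in both directions. Of 14 tested activators and inhibitors 7 fell, 2 rose and 5 were not called (64.3% called, against 36.1% of all tested genes, median -0.14). Kindlin-2 (Fermt2), which binds beta tails and helps talin to activate integrins, averaged 107 ± 1.30 CPM in PDT cells and 172 ± 1.72 CPM in PBS cells (log2 fold change -0.69 ± 0.03, adjusted p = 6.71e-07, edgeR). The talin gene Tln2 fell by 0.34 ± 0.05, whereas Apbb1ip, the adaptor RIAM that links RAP1 to talin, rose by 0.47 ± 0.05. The more abundant talin gene Tln1 was at -0.05 ± 0.04 (890 ± 14.2 CPM in PDT cells and 918 ± 42.0 CPM in PBS cells) and was not called (adjusted p = 0.427, edgeR).

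Among 26 adhesion adaptors and kinases 11 fell, 4 rose and 11 were not called (57.7% called, against 36.1% of all tested genes, median -0.07). The docking protein gene Nedd9 fell by 0.66 ± 0.04, Tns3 (tensin 3) by 0.53 ± 0.04, and the actin crosslinker genes Actn1 and Actn4 by 0.47 ± 0.03 and 0.45 ± 0.04 (adjusted p at or under 1.40e-05, edgeR). The focal adhesion kinase gene Ptk2 was at 0.02 ± 0.05 and Ilk, the integrin-linked kinase gene, at 0.02 ± 0.06, and neither was called. The 4 that rose, named after their values were seen, were Parvb (a parvin of the ILK complex, 0.41 ± 0.05), the kinase genes Fyn (0.38 ± 0.04) and Src (0.19 ± 0.04), and Git1 (0.18 ± 0.04), with adjusted p at or under 0.00917 (edgeR). The call of Git1 ended without PDT replicate 1 (adjusted p = 0.0512, edgeR). Of 19 genes of integrin endocytosis and recycling 4 fell, 5 rose and 10 were not called (median -0.03). This made 47.4% called, against 36.1% of all tested genes (17.5% lower and 18.7% higher). With the stricter filter on low counts 6155 of 12831 genes were called, a share close to that of this list. Rab5a, a regulator of early endosomes, Cav1, the caveolin gene, and Numb, an endocytic adaptor gene, fell by 0.27 ± 0.04, 0.25 ± 0.04 and 0.23 ± 0.04, and Ehd1, a recycling protein gene, rose by 0.28 ± 0.04.

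Membrane proteins that associate with integrins had 3 of 14 lower, 5 higher and 6 not called (median 0.03). This made 57.1% called, against 36.1% of all tested genes (17.5% lower and 18.7% higher) and 6155 of 12831 genes with the stricter filter on low counts. The tetraspanin gene Cd151, whose product binds the laminin receptors α3β1 and α6β1, rose by 0.35 ± 0.05 to 239 ± 11.0 CPM in PDT cells, against 188 ± 7.14 CPM in PBS cells (adjusted p = 0.000335, edgeR). Tspan9 and Cd81, also tetraspanin genes, rose by 0.22 ± 0.04 and 0.21 ± 0.05, and the call of Cd81 ended with length and GC offsets (0.08, adjusted p = 0.109, edgeR). Sdc2, the syndecan 2 gene, fell by 0.28 ± 0.03, and with offsets by 0.14.

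**Figure D4:**
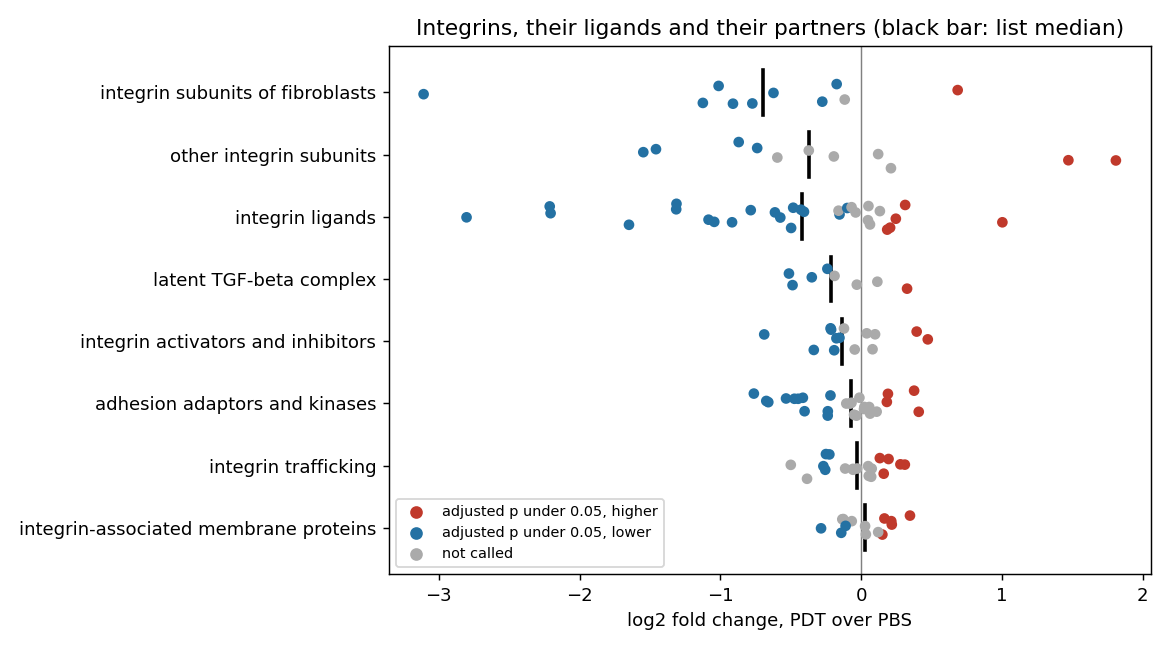
Log2 fold change, PDT over PBS (horizontal axis), of each tested gene of the 10 subunits and 7 related lists. Colours give the edgeR call and black bars the list medians, which run from -0.70 for the subunits to 0.03 for the integrin-associated membrane proteins.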

How the data were processed

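RNA of 6 samples was sequenced after ribosomal RNA removal with a directional kit, per the labels' protocols. The deposited table holds raw read counts per gene symbol. The submitters' processing notes name STAR 2.7.11b, cutadapt 4.6 and GRCm39. What counter, annotation and strand setting were used is not given here, so reads shared with overlapping genes (Gm49395 for Itga1, E030013I19Rik for Itga8 and Gm13684 for Itgav, each with 45 counts or fewer per library) are uncertain.

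Members and gene lists were chosen with earlier results of these data known. Groups came from the treatment label. Genes passing filterByExpr were TMM-scaled and tested on group alone with edgeR 4.0.16 in R 4.3.3 (quasi-likelihood, threshold 0.05). SE is the size of the log2 fold change over the square root of F. Lengths and GC are of the longest protein-coding GENCODE M21 transcript, available for 92.7% of tested genes and all 10 subunits. Promoters from RefSeq matched 8 of the 10. Named genes were the subunits, tested other integrins and up to 4 called genes of each related list with the lowest adjusted p, and others are marked or are given as background. Some genes that this rule or the lists hold are not reported here. The procedure was tested on simulated data. Alternatives were DESeq2 1.42.0, limma-voom (limma 3.58.1), scaling by RLE or by library size only, no filter or a stricter one (10 or more counts in 3 or more samples, with a mean of 1 CPM), the replicate number as a block, length and GC offsets (mgcv 1.9.3), and leaving out each sample. Intervals and limits cover counting error or the spread between samples only, and depth was at least 83195529 counts a library.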

Additional observations from a re-analysis of the deposited data

How the results depend on the processing

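Of the 10 subunits, 9 were called in the fit reported and in every alternative run except the stricter filter, where Itga11 was not tested and 8 were called. None changed direction or call in the 139 comparisons made over the 14 alternatives. Leaving out each library in turn kept the count at 9. Same-numbered libraries did not deviate together (r = -0.0122, 0.0140 and 0.00470 across genes). PDT replicate 1 correlated better with PBS replicate 2 (0.0137) than with its own number. With 3 libraries a group, each centred on the group mean, such values cannot show whether the numbers pair the samples. With the replicate block 9 subunits and 6067 of 17635 genes were called. The alternatives were run for 54 genes beside the subunits, not for every member of the related lists. Among these, calls changed for Itga9, Itga10, Itgae, Itgb8, Cd81, Git1 and Dcn. Genes near 0 that were not called changed sign: Lamb1 (0.010), Tgfb3 (0.018) and Tln1 (0.0031) with library size only, Tln1 (0.024) and Ilk (-0.11) with length and GC offsets, Ilk without PBS replicate 3 or PDT replicate 1 (-0.025 to 0.085 over the libraries left out in turn), and Ptk2 without PDT replicate 1 or 3 (-0.014 to 0.067).

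Shares were the most sensitive to the length used. Those of Itga5 overlapped between the groups with transcript length and did not with coding length. With coding length the difference in share, PDT minus PBS, in percentage points, was -0.669 for Itga1 (-0.41 with transcript length), 3.62 for Itga5 (1.76), 7.73 for Itga6 (8.91), -0.125 for Itga11 (-0.156), 7.11 for Itgb1 (7.88), -0.0731 for Itgb3 (-0.0453) and -7.04 for Itgb5 (-7.83). With all integrin subunits that passed the filter it was 7.05 for Itgb1. Leaving out a library gave 8.66 to 9.10 for Itga6, -8.78 to -7.69 for Itgav, 7.66 to 8.12 for Itgb1, -8.07 to -7.61 for Itgb5 and 1.05 to 2.35 for Itga5. Depth limits Itga11, with 9 to 23 counts in PDT libraries. Counts are per gene, so splice forms of the subunits were not separated, and transcript levels do not give protein at the cell surface.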
